A study of Mus musculus with 12 samples.

Results

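The genes described here are 36 genes of the secretory pathway of the endoplasmic reticulum (ER) and of the unfolded protein response, chosen by gene symbol from a table of 23420 mouse genes. All 36 were in the table and all 36 passed the filter on low counts, as did 15369 genes in all. They were followed in whole pyloric tissue, where the stomach opens to the duodenum, from C57BL/6 mice at an age of 60 days (D60) or 80 days (D80). The wild-type groups are called D60WT and D80WT, and the groups carrying the CEA424-SV40 T Ag transgene, in which a fragment of the promoter of the human carcinoembryonic antigen gene drives the viral large T antigen in pyloric epithelium, are called D60SV and D80SV. Each group has 3 RNA-seq libraries, and no treatment was named. The labels do not say whether the 3 libraries of a group came from separate animals, so the p-values measure the spread between these libraries. Levels are counts scaled to a common library size (CPM, a total of 1e+06) after scaling by the trimmed mean of M-values, and a gene is called higher or lower at an adjusted p of 0.05 in edgeR's quasi-likelihood test, with Benjamini-Hochberg adjustment over all genes tested.

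The ER takes in newly made secretory and membrane proteins through the Sec61 channel, folds them with chaperones and disulfide isomerases, and sends what fails to fold back to the cytosol for degradation. When unfolded proteins build up, the sensors Ire1 (encoded by Ern1 and, in mucosal epithelium, by Ern2), Atf6 and Perk change transcription and translation through Xbp1, cleaved Atf6 and Atf4. Mucus-secreting stomach cells carry a heavy secretory load, and Agr2 and Ern2 are known from mucin-producing cells of the gut of mice.

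Total counts per library ran from 20121600 to 27633715, and the scaling factors from 0.805 to 1.30. Markers of neuroendocrine cells summed to 24826 to 37244 CPM in the D80SV libraries, 4285 to 5866 in D60SV and 295 to 538 in the 6 wild-type libraries. Markers of surface mucous cells, which line the gastric pits, summed to 16106 to 29122 CPM in D80SV and to 54239 to 137170 in D80WT. All 5 of these surface mucous markers and all 6 smooth muscle markers were lower in D80SV. Transcripts of neighbouring tissue were present in some libraries. The 10 duodenal enterocyte markers summed to 11236 CPM in D80WT 3 against 392 and 2454 in the other D80WT libraries. The 12 pancreatic acinar markers summed to 4415, 1042 and 882 CPM in D80SV and to 283 to 613 in wild-type libraries, and 3 of the 10 tested were higher in D80SV. Most of the wild-type sum was Cela1, an elastase whose D80 groups overlapped. Without it, the other 11 summed to 3778, 863.5 and 660.2 CPM in D80SV, to 279.5 in D80WT 3 and to 0.952 to 1.95 in the other 5 wild-type libraries. The acinar transcription factors Ptf1a and Rbpjl were at or near 0 in all libraries, with a highest level of 1.02 CPM for Rbpjl in D80SV 1. The sex read from Xist and 4 Y-linked genes was male in all D60WT libraries and in D80SV 1, and female in the other 8, so that at D60 genotype and sex cannot be told apart, nor age and sex in wild-type mice. In bulk tissue, fewer cells of a type and less RNA per cell cannot be told apart.

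The promoters of several of these genes, not all of them chaperones, hold the element through which the response is known to act. They are shown for this shared sequence. RefSeq windows on GRCm38.p6 of 300 bases, from 250 before to 50 after a start site, were found for 28 of the 36 genes, in 29 windows. The ER stress response element (ERSE), searched as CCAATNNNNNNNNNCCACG on both strands, was found in the windows of 8 genes, 28.6% of the 28, and in 39 of all 32851 windows, 0.119%. Its other form, ERSE-II, searched as ATTGG, any base and CCACG on both strands, was found in 2 genes and in 12 of all windows, 0.0365%. The sites are written along the element with its fixed letters in capitals.
Hspa5: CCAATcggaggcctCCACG
Calr: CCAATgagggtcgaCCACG
Canx: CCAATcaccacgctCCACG
Creld2: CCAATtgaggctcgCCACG
Derl3: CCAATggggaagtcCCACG
Dnajc3: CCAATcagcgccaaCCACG
Pdia6: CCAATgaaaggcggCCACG
Hsp90b1, upstream site: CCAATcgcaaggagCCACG
Hsp90b1, downstream site: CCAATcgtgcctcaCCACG
Herpud1, ERSE-II: ATTGGgCCACG
Dnajb11, ERSE-II: ATTGGcCCACG

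The first base of the site lay 65 bases before the start in Hspa5, 98 in Pdia6, 105 in Dnajc3 and 145 in Canx. In Calr, Derl3, Creld2 and the downstream Hsp90b1 site the element was on the opposite strand, and in Dnajb11 it lay just after the start. The core of the unfolded protein response element, TGACGTGG, was in none of the 28 genes and in 0.676% of all windows. The C/EBP-ATF element, TTGCATCA, to which Atf4 and Ddit3 are known to bind, was in the window of Herpud1 alone and in 0.895% of all windows. No matches overlapped. A match is a description of letters and not evidence of binding. The windows of Hspa5 and Derl3 are given because the first encodes the master chaperone BiP and the second is a gene with this element that was called higher in D80SV, and that of Hsp90b1 because it holds 2 sites. Capitals mark the elements, which in Derl3 and at the downstream site of Hsp90b1 read as the reverse complement.
Hspa5, chr2:34771840-34772139, plus strand: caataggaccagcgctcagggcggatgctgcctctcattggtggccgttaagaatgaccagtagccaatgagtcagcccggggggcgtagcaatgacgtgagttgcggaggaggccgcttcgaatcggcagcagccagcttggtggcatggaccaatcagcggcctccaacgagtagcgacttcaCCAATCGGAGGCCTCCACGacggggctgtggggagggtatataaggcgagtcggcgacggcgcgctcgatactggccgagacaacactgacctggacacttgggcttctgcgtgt
Derl3, chr10:75893148-75893447, plus strand: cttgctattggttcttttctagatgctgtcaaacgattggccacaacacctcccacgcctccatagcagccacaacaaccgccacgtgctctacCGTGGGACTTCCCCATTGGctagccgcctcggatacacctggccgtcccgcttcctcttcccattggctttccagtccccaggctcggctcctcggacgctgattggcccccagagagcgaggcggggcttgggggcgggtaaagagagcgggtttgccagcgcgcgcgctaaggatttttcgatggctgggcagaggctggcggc
Hsp90b1, chr10:86705395-86705694, minus strand: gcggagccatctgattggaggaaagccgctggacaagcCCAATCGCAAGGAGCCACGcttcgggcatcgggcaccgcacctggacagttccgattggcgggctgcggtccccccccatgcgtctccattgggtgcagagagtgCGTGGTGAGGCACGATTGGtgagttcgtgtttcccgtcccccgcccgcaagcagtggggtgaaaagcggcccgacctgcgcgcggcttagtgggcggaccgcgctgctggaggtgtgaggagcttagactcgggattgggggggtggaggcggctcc

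Levels differed widely between the 36 genes. Per kilobase of exon, by the gene models of GENCODE M21 on GRCm38, whose coordinates are given below, the highest median level over the 12 libraries was that of Agr2, an ER-resident isomerase of mucus cells, at 1872 CPM per kb. P4hb, the most abundant general disulfide isomerase, followed at 655 CPM per kb, the lectin chaperone Calr at 397, the isomerase Pdia3 at 288.5 and Hspa5 at 244. Ern2, the epithelial Ire1 gene, had a median of 45.3 CPM per kb and Ern1, the form found in all cells, 3.02. The lowest medians were those of Derl3, at 0.582 CPM per kb with 12 to 96 counts per library, and Sec61g, at 1.06 with 46 to 94 counts. The 36 genes together took 13264 to 16296 CPM in D60WT, 11632 to 16258 in D80WT, 12226 to 14865 in D60SV and 11406 to 12567 in D80SV. The ranges of wild-type and transgenic libraries overlapped at both ages. At D80 they overlapped through D80WT 3 alone, the library with the most duodenal markers. D80WT 1 (16258) and D80WT 2 (14729) were above every D80SV library.

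Within D60WT, D80WT and D60SV, many of the 36 genes had their extreme level in the same library. D60WT 2 had the lowest level of its group for 32 of the 36 genes, D80WT 3 for 24, and D60SV 1 had the highest of its group for 29. In D80SV, libraries 1, 2 and 3 were highest for 16, 10 and 10 genes and lowest for 7, 14 and 15. The same counts over all genes were not taken, so they are not read as a trait of these 36 genes. The median ratio of the highest to the lowest library in a group was 1.27 in D60WT, 1.34 in D80WT, 1.22 in D60SV and 1.16 in D80SV. The widest ratio was that of Creb3l1 in D80WT, 3.13, followed by Agr2 in the same group, 2.52. D80WT 1, where both were highest, also had the highest sum of gland mucous and zymogenic markers, 70564 CPM against 20108 to 40609 in the other 11 libraries. The part of this difference in the results was not tested.

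**Figure D1:**
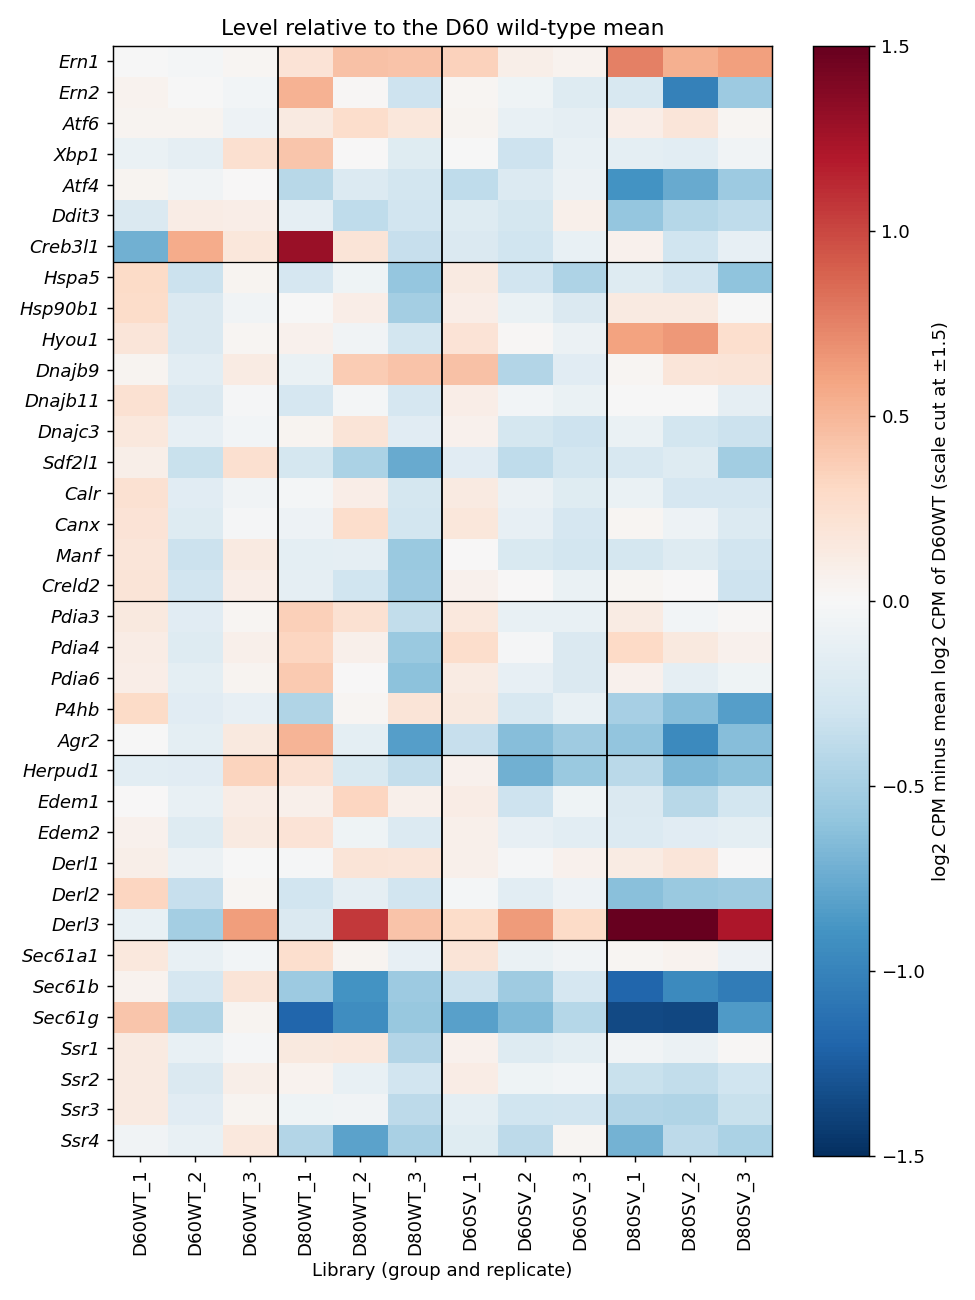
The heat map shows the 36 genes by role (vertical) in the 12 libraries (horizontal), coloured by the log2 difference of each library's CPM from the gene's mean over the D60WT libraries. Sec61b and Sec61g are below that mean in every D80 library, Derl3 is above it in all 3 D80SV libraries, and D80WT 1 stands out for Creb3l1.

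The comparison at D60 asked whether these genes differed between genotypes at the younger age. None of the 36 genes was called higher or lower between D60SV and D60WT by edgeR, DESeq2 or limma-voom, while 3.90% of all genes tested were called, 3.66% higher and 0.241% lower. At an unadjusted p under 0.05, 2 of the 36 genes, 5.56%, passed, against 14.7% of all genes. These were Sec61b (−0.38, adjusted p = 0.23) and Sec61g (−0.67, adjusted p = 0.29), both subunits of the Sec61 channel. The median log2 fold change was −0.08 for the 36 genes and −0.0041 for all genes. For 32 of the 36 genes the 95% interval of the difference lay within a 2-fold change in either direction, which was so for 68.7% of all genes. Ern1 was above wild-type in all D60SV libraries and Atf4, Agr2 and Sec61b below in all of them, and the groups overlapped for the other 32 genes. Groups that did not overlap were found for 20.0% of all genes, with SV above for 12.2% and below for 7.84%.

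At D80, 7 of the 36 genes were called between D80SV and D80WT, 19.4%, while 41.3% of all genes were called. The chaperone gene Hyou1 and the degradation gene Derl3 were higher, against 19.4% of all genes. Ern2, Atf4, P4hb, Edem1 and Sec61b were lower, against 22.0% of all genes, and none of these 5 was called lower with upper-quartile scaling or with no composition factor. The median log2 fold change was −0.10 for the 36 genes and −0.07 for all genes, and the median size of the change, whatever its sign, was 0.213 for the 36 genes and 0.452 for all genes. The interval lay within a 2-fold change for 31 of the 36 genes and for 52.3% of all genes. The D80SV libraries were all above D80WT for 3 genes, against 24.4% of all genes, and all below for 7 genes, against 26.1%, which makes 10 genes without overlap against 50.5% of all genes in either direction. Whether these shares differ from those of all genes was not tested.

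**Figure D2:**
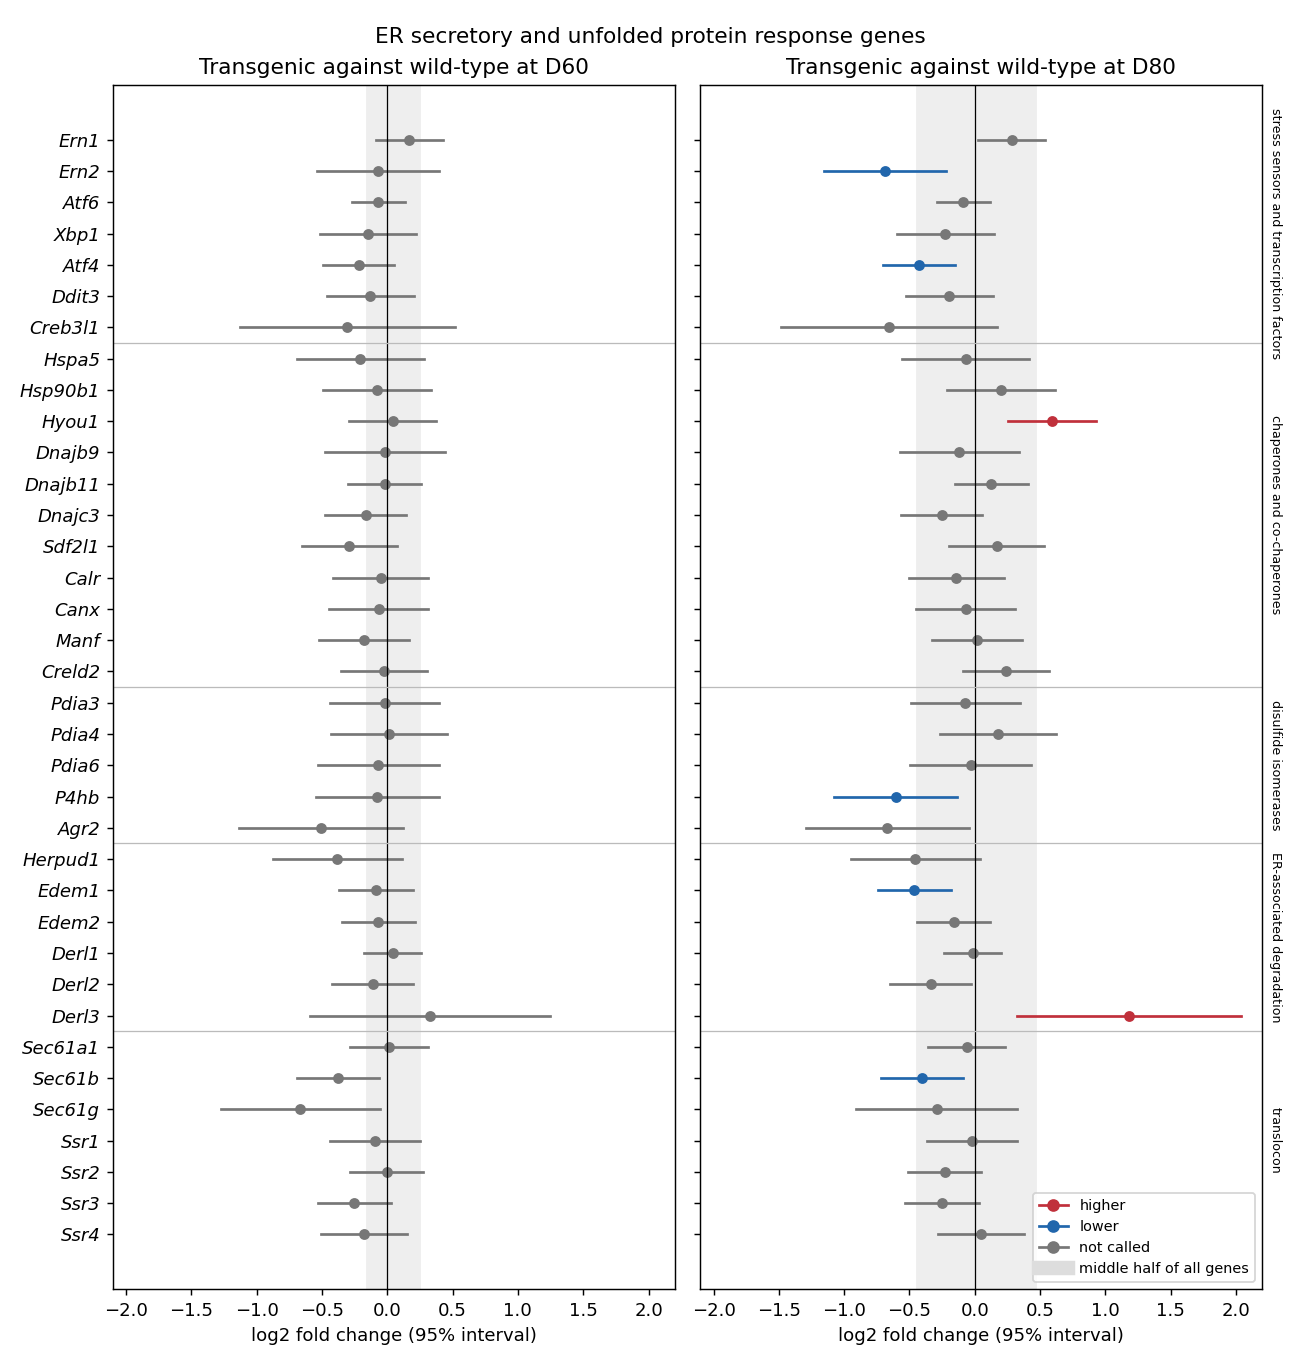
The points give the log2 fold change of each of the 36 genes between transgenic and wild-type pylorus at D60 and at D80, grouped by role, with bars for the 95% interval of edgeR's quasi-likelihood fit and colour for the call. No gene is called at D60, and at D80 Hyou1 and Derl3 are called higher and 5 genes lower, a lower count that fell to 0 with no composition factor.

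How the libraries were scaled bears on each direction at D80. The median of all genes moved up by 0.414 on the log2 scale with no composition factor, by 0.159 with upper-quartile factors and by 0.0373 with the median-of-ratios factors. Relative to that median, 33 of the 36 genes kept their sign at D80 under all 4 scalings, and 17 kept the sign of the fold change itself. The share of higher calls among all calls was 46.8% as reported, 51.7% with median-of-ratios factors, 63.0% with upper-quartile factors and 83.6% with none.

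Among the 7 stress sensors and transcription factors, none was called higher at D80, and Ern2 and Atf4 were called lower. Ern1 (chr11:106394650-106487852, minus strand), the general Ire1 sensor whose nuclease splices Xbp1 mRNA, stood at 20.3, 19.9 and 20.8 CPM in D60WT, 25.8, 21.7 and 21.2 in D60SV, 23.5, 27.5 and 27.3 in D80WT and 34.5, 29.5 and 31.3 in D80SV. The lowest D80SV library was above the highest of D80WT, and the 3 D60WT libraries lay closest together. The difference at D80 missed the threshold (log2 difference 0.28, SE 0.12, adjusted p = 0.072) and passed it with DESeq2 (adjusted p = 0.037), with at least 5 CPM in 3 libraries (0.03), with upper-quartile factors (0.0098) and with no composition factor (0.0012).

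Ern2 (chr7:122169893-122186207, minus strand), the Ire1 form of mucous epithelium, stood at 145, 139 and 135 CPM in D60WT, 142, 133 and 122 in D60SV, 201, 142 and 113 in D80WT and 118, 69.0 and 95.6 in D80SV. The D80 groups overlapped, because D80WT 3 was below D80SV 1, and D80WT 1 was the highest of the 12 libraries. Ern2 was lower in D80SV by the test (log2 difference −0.69, SE 0.21, adjusted p = 0.024), and so were the surface mucous markers. Within D80WT, surface mucous markers summed to 54239, 126580 and 137170 CPM, the reverse order of Ern2. Gland mucous and zymogenic markers summed to 70564, 30929 and 20108 there, in the order of Ern2. The part of either in the result was not tested. The call was lost without D80WT 1 (adjusted p = 0.078), D80SV 2 (0.095) or D80SV 3 (0.078), with log2 fold changes of −0.44, −0.51 and −0.65.

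The 2 Ire1 genes were also set against each other within each library, a comparison chosen after their values were seen and free of the scaling factor. The ratio of Ern1 to Ern2 counts was 0.292, 0.428 and 0.327 in the D80SV libraries and 0.117 to 0.241 in the other 9. It was above all others in each D80SV library.

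Atf4 (chr15:80255184-80257541, plus strand), the transcription factor whose translation rises when Perk phosphorylates eIF2-alpha, stood at 276, 257 and 269 CPM in D60WT and 206, 232 and 252 in D60SV. At D80 it stood at 199.8, 233 and 221 in D80WT and 143, 159 and 184 in D80SV. The transgenic libraries were below the wild-type ones at both ages, and the D80SV libraries were the 3 lowest of the 12. The difference passed at D80 (log2 difference −0.43, SE 0.13, adjusted p = 0.018) and not at D60 (−0.22, adjusted p = 0.48). At D80 the call was lost without D80WT 2 (−0.38, adjusted p = 0.059), D80SV 1 (−0.35, 0.067) or D80SV 2 (−0.41, 0.06), and with no composition factor the difference was −0.0033.

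Xbp1, whose spliced form drives chaperone and degradation genes, stood at 366, 358 and 465 CPM in D60WT, 393, 318 and 363 in D60SV, 525, 395 and 348 in D80WT and 355, 352 and 378 in D80SV. The groups overlapped at both ages, with D80WT 1 the highest. The difference at D80 was −0.22 (95% interval −0.59 to 0.14, adjusted p = 0.31). A count per gene does not separate the spliced from the unspliced form.

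Atf6, the sensor that is cleaved in the Golgi, stood at 67.2, 67.0 and 61.7 CPM in D60WT, 67.0, 60.3 and 59.3 in D60SV, 71.8, 78.5 and 73.2 in D80WT and 69.7, 73.9 and 66.5 in D80SV, with overlap at both ages (D80 difference −0.09, interval −0.29 to 0.11). Ddit3, which encodes Chop, a factor tied to cell death in prolonged stress, stood at 11.5, 14.5 and 14.4 CPM in D60WT, 11.7, 11.2 and 14.1 in D60SV, 12.2, 10.3 and 11.0 in D80WT and 8.98, 9.96 and 10.3 in D80SV. Its D80 difference was −0.19 (interval −0.53 to 0.14, adjusted p = 0.33). Neither gene was called, and both intervals for D80 stayed within a 2-fold change. Ddit3 shares 4.73% of its exon bases with genes on the opposite strand, Mars among them, and the strand setting of the counting is not given in the sources used here.

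Creb3l1, a membrane-bound factor of secretory cells, was the most uneven of the 7. It stood at 140.0, 339.9 and 259.9 CPM in D60WT, 198, 188 and 213 in D60SV, 568, 265 and 182 in D80WT and 242, 188 and 213 in D80SV. The wild-type libraries spanned the transgenic ones at both ages. The D80 difference was −0.66 (interval −1.49 to 0.17, adjusted p = 0.18), and the interval reached past a 2-fold change. Without D80WT 3 it passed the threshold (−0.96, adjusted p = 0.049).

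**Figure D3:**
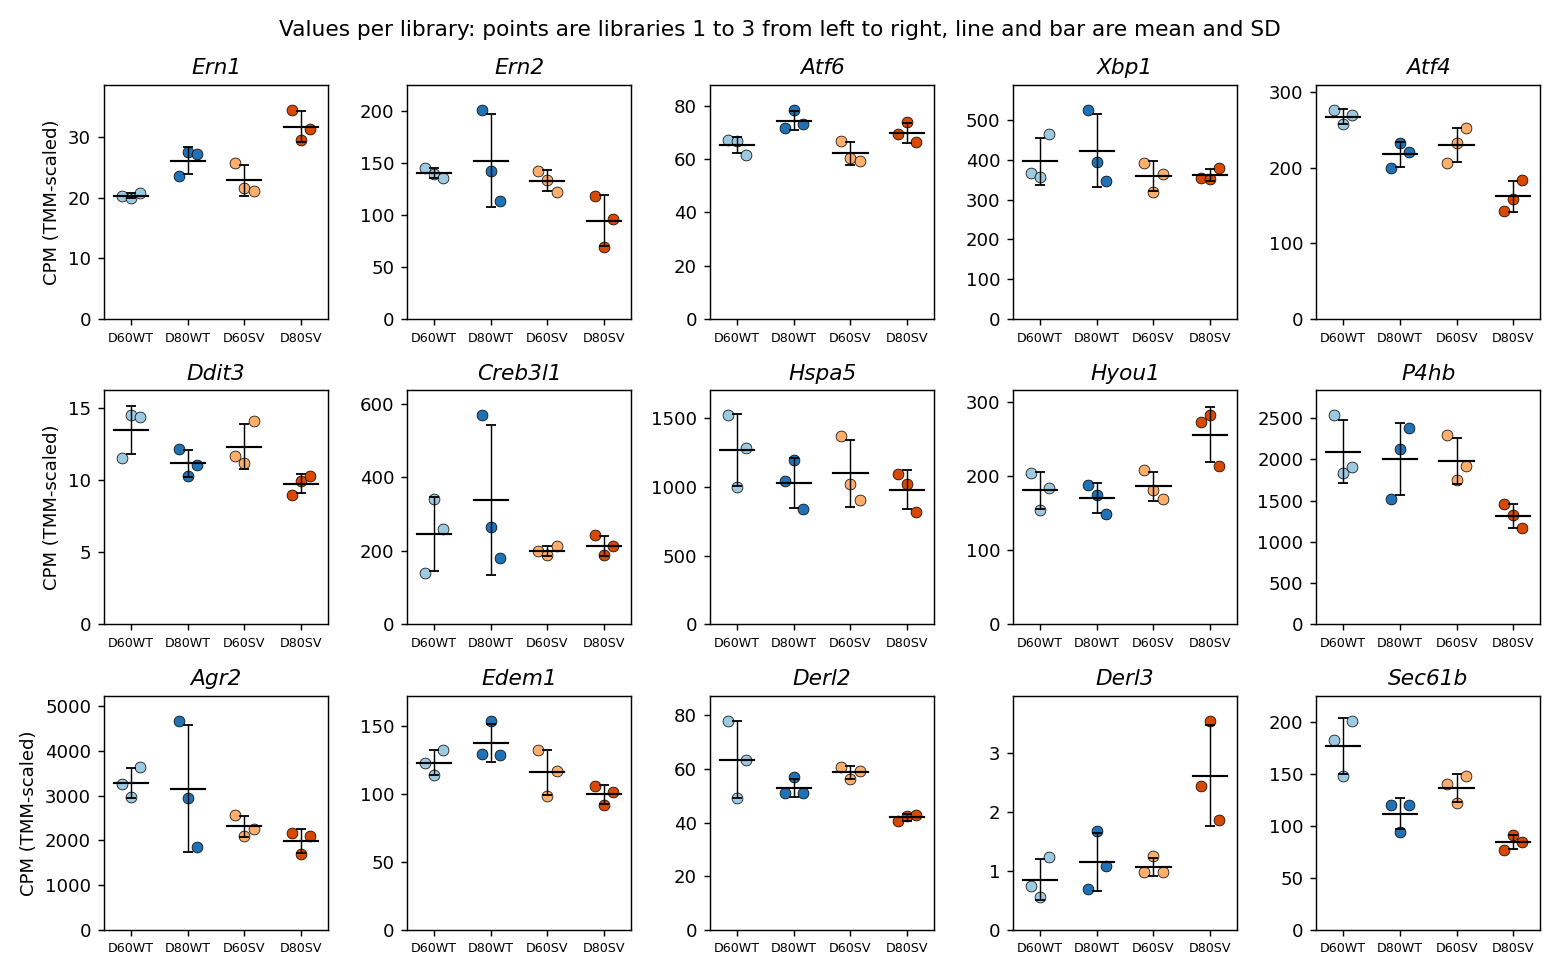
Each panel shows the CPM of 1 gene (vertical, from 0) in the 4 groups (horizontal), with a point per library and a bar at the mean with the SD of 3 libraries. Hyou1 and Derl3 are above wild-type in all 3 D80SV libraries, Atf4 and Sec61b below in all of them as scaled here (Sec61b turned to a difference of 0.011 with no composition factor), and Hspa5 and Xbp1 overlap.

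Among the 11 chaperones and co-chaperones, 1 was called higher and 0 lower at D80, 9.09%, with a median log2 fold change of 0.02. Hspa5, which encodes BiP, the chaperone that binds the sensors and the usual readout of the response, stood at 1519, 996 and 1283 CPM in D60WT and 1370.2, 1019 and 905 in D60SV. At D80 it stood at 1046, 1197 and 837 in D80WT and 1094, 1019.8 and 819.8 in D80SV. The groups overlapped at both ages, and D80SV 3 and D80WT 3 were the lowest libraries of the 12. The D80 difference was −0.07 (SE 0.22, interval −0.55 to 0.41, adjusted p = 0.82).

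Hyou1 (chr9:44379490-44392369, plus strand), an Hsp110-type nucleotide exchange factor for BiP, was the chaperone gene that was called. It stood at 204, 154 and 184 CPM in D60WT, 208, 182 and 169 in D60SV, 188, 174 and 149 in D80WT and 273, 282 and 214 in D80SV. Each D80SV library was above the other 9 libraries, while the D60 groups overlapped. Hyou1 was higher in D80SV (log2 difference 0.59, SE 0.15, adjusted p = 0.01), and relative to the median of all genes the difference was 0.66 as scaled and 0.65 with no composition factor. The call held in each of the 12 fits that left out 1 library. It was lost when D80WT 3 and D80SV 1, the libraries with the most duodenal and acinar transcripts, were both left out (0.45, adjusted p = 0.09). The D80SV libraries kept in that fit also held acinar transcripts. Acinar markers summed to 4415, 1042 and 882 CPM in the 3 D80SV libraries. Within D80SV, Hyou1 was highest in D80SV 2, and Hyou1 and the acinar sum were both lowest in D80SV 3. The acinar sum, with or without Cela1, was also above the other 9 libraries in each D80SV library. Neuroendocrine markers summed to 26152, 37244 and 24826 CPM in the 3 D80SV libraries, in the order of Hyou1, and were likewise above the other 9. The part of acinar or of neuroendocrine transcripts in the result was not tested.

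Hyou1 was also set against Hspa5 within each library. The ratio of their counts, again chosen after the values were seen, was 0.249, 0.276 and 0.261 in D80SV and 0.134 to 0.186 in the other 9 libraries. Each D80SV library was above all others.

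The other 9 chaperone genes were not called at D80, with log2 fold changes from −0.25 for Dnajc3, which encodes a BiP co-chaperone also known to inhibit Perk, to 0.24 for Creld2, a stress-induced secreted protein. Hsp90b1, which encodes the Hsp90 of the ER, differed by 0.20 (interval −0.21 to 0.62), and 15.7% of its exon bases overlap other genes. The lectin chaperones Calr (−0.14) and Canx (−0.07), the co-chaperones Dnajb9 (−0.12), Dnajb11 (0.13) and Sdf2l1 (0.17), and the stress-induced secreted factor Manf (0.02) had adjusted p-values of 0.44 or more. Their 95% intervals at D80 all lay within a 2-fold change.

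Among the 5 disulfide isomerases, P4hb (chr11:120560298-120573253, minus strand) was called lower at D80. It stood at 2534, 1839.6 and 1907 CPM in D60WT, 2294, 1749.6 and 1916 in D60SV, 1518, 2122 and 2377 in D80WT and 1462, 1327 and 1169.8 in D80SV. All 3 D80SV libraries were below D80WT, with D80WT 1 just above D80SV 1, while the D60 groups overlapped. P4hb was lower in D80SV (log2 difference −0.60, SE 0.22, adjusted p = 0.041), and so were the surface mucous markers. These summed to 54239, 126580 and 137170 CPM in D80WT and 29122, 19750 and 16106 in D80SV, in the order of P4hb. The orders were also the same in D60WT and differed in D60SV. The part of surface mucous cells in the result was not tested. The call of P4hb was among the least stable, and held in 3 of the 12 fits that left out 1 library. Its adjusted p was 0.054 without D60WT 1, D60WT 3 or D80SV 1, 0.10 without D80WT 2 or D80SV 2, 0.12 without D80WT 3, 0.17 without D80SV 3, 0.073 without D60SV 2 and 0.058 without D60SV 3.

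Pdia3, which works with the lectin chaperones (−0.07), Pdia4 (0.18) and Pdia6 (−0.03) were not called at D80, with adjusted p-values from 0.51 to 0.92. Agr2, needed in mice for making intestinal mucin, stood at 3259.5, 2967 and 3639 CPM in D60WT, 2574, 2109 and 2258 in D60SV, 4669.6, 2953 and 1854 in D80WT and 2172, 1691 and 2098 in D80SV. At D60 all D60SV libraries were below D60WT, and at D80 the groups overlapped through D80WT 3 alone, the library with the most duodenal markers. The difference missed the threshold at D80 (log2 difference −0.67, SE 0.29, adjusted p = 0.081) and passed it without D80WT 3 (−0.94, adjusted p = 0.01) and with DESeq2 (−0.63, 0.043). Surface mucous markers were also lower in D80SV, and none of them was called at D60. Within D80WT they summed to 54239, 126580 and 137170 CPM, the reverse order of Agr2. Gland mucous and zymogenic markers summed to 70564, 30929 and 20108 there, in the order of Agr2. The part of either was not tested.

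The ratio of Hsp90b1 to P4hb counts, another pair chosen after the values were seen, was 0.687, 0.754 and 0.776 in D80SV and 0.27 to 0.60 in the other 9 libraries, again with no overlap.

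**Figure D4:**
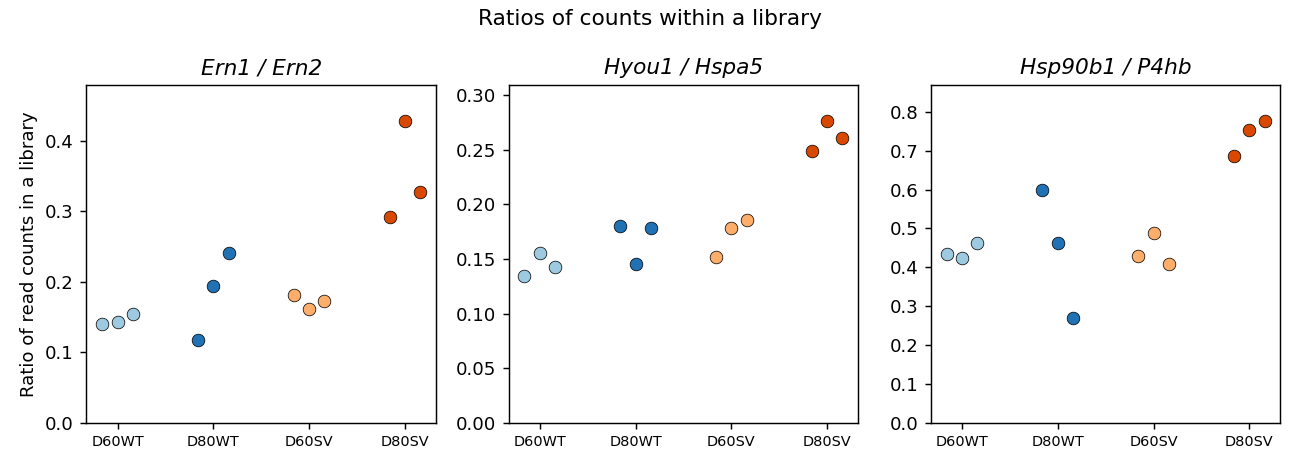
The 3 panels show the ratio of the counts of a pair of genes within each library (vertical, from 0) in the 4 groups (horizontal), a point per library. The 3 D80SV libraries are above the other 9 in each panel, at 0.292 to 0.428 for Ern1 over Ern2, 0.249 to 0.276 for Hyou1 over Hspa5 and 0.687 to 0.776 for Hsp90b1 over P4hb.

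Among the 6 genes of ER-associated degradation, Derl3 was called higher and Edem1 lower at D80. Derl3 (chr10:75893413-75895941, plus strand), a derlin of the retrotranslocation complex that is known from highly secretory cells, stood at 0.741, 0.565 and 1.24 CPM in D60WT, 0.976, 1.25 and 0.979 in D60SV, 0.691, 1.68 and 1.08 in D80WT and 2.43, 3.54 and 1.86 in D80SV. Every D80SV library was above the other 9, and the rest overlapped. Derl3 was higher in D80SV (log2 difference 1.18, SE 0.39, adjusted p = 0.031), from 12 to 96 counts per library over all groups. The call was lost without D80WT 1 (0.91, adjusted p = 0.088), D80WT 3 (1.14, 0.077), D80SV 1 (1.22, 0.055) or D80SV 2 (0.90, 0.13). It was also lost when D80WT 3 and D80SV 1 were both left out (1.18, 0.11). Within D80SV, Derl3 was highest in D80SV 2 and acinar markers in D80SV 1, and both were lowest in D80SV 3. The acinar sum, with or without Cela1, was also above the other 9 libraries in each D80SV library. Neuroendocrine markers summed to 26152, 37244 and 24826 CPM in D80SV 1, 2 and 3, in the order of Derl3, and were likewise above the other 9 libraries. The part of acinar or of neuroendocrine transcripts was not tested. Of 7 markers of plasma cells, another highly secretory type, none of the 6 tested was called at D80. Except in D80WT 2, most of their sum was Sdc1, which epithelial cells also express. The other 6 summed to 99.1, 65.3 and 121.7 CPM in D80SV and to 34.3, 385 and 197 in D80WT, with overlap.

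Edem1 (chr6:108828641-108859356, plus strand), a lectin that extracts misfolded glycoproteins for degradation, stood at 123, 114 and 132 CPM in D60WT, 132, 98.6 and 117 in D60SV, 129.7, 154 and 129 in D80WT and 106, 92.0 and 102 in D80SV. All D80SV libraries were below D80WT, and the D60 groups overlapped. Edem1 was lower at D80 (log2 difference −0.46, SE 0.13, adjusted p = 0.014). The call was lost without D80WT 2 (−0.38, adjusted p = 0.057), D80SV 2 (−0.41, 0.062) or D80SV 3 (−0.43, 0.054).

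The other 4 degradation genes were not called at D80. Herpud1, a stress-induced partner of the Hrd1 ligase, had D80SV levels of 170.2, 142 and 147 CPM against 262, 192 and 175 in D80WT, with no overlap (−0.46, adjusted p = 0.13). Derl2, another derlin, had 40.5, 42.5 and 43.0 against 51.1, 56.9 and 51.0, also with no overlap (−0.34, 0.078). Edem2, which trims mannose from misfolded glycoproteins, differed by −0.16 and Derl1 by −0.02, and their groups overlapped.

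Among the 7 subunits of the translocon and its associated TRAP complex, Sec61b was called lower at D80. Sec61b (chr4:47474658-47483242, plus strand), the small beta subunit of the channel, stood at 183, 148 and 201 CPM in D60WT, 140.2, 122 and 148 in D60SV, 120.1, 94.5 and 120.3 in D80WT and 77.1, 90.9 and 84.8 in D80SV. The transgenic libraries were below the wild-type ones at both ages, and the D80 libraries below the D60 libraries in both genotypes. Sec61b was lower in D80SV (log2 difference −0.41, SE 0.14, adjusted p = 0.041), and with no composition factor the difference was 0.011. Without a single library the adjusted p passed the threshold in 4 of 12 fits, and it was 0.081 without D60WT 1, 0.087 without D80WT 1, 0.11 without D80WT 3, 0.072 without D60SV 2, 0.051 without D60SV 3, 0.12 without D80SV 1, 0.061 without D80SV 2 and 0.14 without D80SV 3. Of its 50-base stretches, 17.4% occur also in other genes such as Gm10320, so its counts are uncertain.

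The channel-forming Sec61a1 differed by −0.06 at D80 (interval −0.36 to 0.24), and the small gamma subunit Sec61g by −0.29, with 14.8% of its 50-base stretches shared with other genes. Of the TRAP subunits, which assist translocation, Ssr1 (−0.02), Ssr2 (−0.23), Ssr3 (−0.25) and Ssr4 (0.05) were not called, though all D80SV libraries were below D80WT for Ssr2. Without D80WT 3, Ssr3 passed the threshold (−0.36, adjusted p = 0.048). Ssr2 shares 12.8% of its exon bases with a gene on the opposite strand.

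Between D60SV and D80SV, 6 of the 36 genes were called, 16.7%, against 35.7% of all genes. This comparison shares the D80SV libraries with the one above, so the genes are not independent support for it. Ern1 (0.47, adjusted p = 0.0097), Hyou1 (0.46, 0.036) and Derl3 (1.28, 0.026) were higher at D80, against 17.7% of all genes called higher. Atf4 (−0.51, 0.0097), Sec61b (−0.70, 0.0041) and Derl2 (−0.48, 0.021) were lower, against 18.0% of all genes, and none of these 3 was called with no composition factor. The calls of Ern1, Atf4 and Sec61b held in all 12 fits that left out 1 library. Derl2 kept its call in 6 of these fits and lost it without any 1 of the 6 transgenic libraries, where its log2 fold change stayed between −0.46 and −0.49. Hyou1 lost it without D60WT 3 (0.46, 0.053), D60SV 2 (0.48, 0.072), D60SV 3 (0.39, 0.13), D80SV 1 (0.41, 0.10) or D80SV 2 (0.39, 0.13). Derl3 lost it without D60SV 1 (1.22, 0.08), D60SV 3 (1.22, 0.085) or D80SV 2 (1.0, 0.11). P4hb (−0.59, 0.051) and Ssr2 (−0.34, 0.055) lay just past the threshold and were called with DESeq2 and without D80WT 1 or D80WT 3, and Ssr2 also without D60WT 2.

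Between D60WT and D80WT, edgeR called none of the 36 genes and 0 of all 15369 genes, and limma-voom called none of the 36. At an unadjusted p under 0.05, 7 of the 36 genes passed, 19.4%, against 12.5% of all genes. DESeq2 called Sec61b (−0.70, adjusted p = 0.0057) and Ssr4 (−0.60, 0.021) lower at D80. It called 1.65% of all genes, 0.586% lower. Without D80WT 1, edgeR called Sec61b lower (−0.72, 0.041). That fit called 2.54% of all genes, 0.128% lower. The log2 value of Sec61b with age was −0.67 in wild-type (adjusted p = 0.28) and −0.70 in transgenic pylorus. The difference between these, the interaction, was −0.03 (interval −0.47 to 0.42). The D60WT libraries were all male and the D80WT libraries all female. Age and sex therefore cannot be told apart in wild-type, which also enters the interaction. Ssr4 lies on chromosome X.

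The interaction asks whether the genotype difference changed between D60 and D80. None of the 36 genes passed it in edgeR, DESeq2 or limma-voom, while edgeR called 5.0% of all genes, 2.77% higher and 2.23% lower. At an unadjusted p under 0.05 in edgeR, 1 of the 36 genes passed, 2.78%, against 23.2% of all genes. That gene was Hyou1 (0.55, interval 0.07 to 1.02, adjusted p = 0.16). A change of the genotype effect with age was not shown for any of the 36 genes, including those called at D80 and not at D60.

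The genes were also read by the promoter element at D80. Of the 10 genes with either form of the element, 1 was called higher and 0 lower, with a median log2 fold change of −0.05 and a range from −0.46 for Herpud1 to 1.18 for Derl3. Of the 18 genes with a window and no element, 0 were called higher and 4 lower, with a median of −0.21. None of these 4 was called lower with upper-quartile scaling or no composition factor. Of all genes tested, 19.4% were called higher and 22.0% lower. The 8 genes with no window in the table, Hyou1 and Ern2 among them, had 1 call in each direction. Whether the classes differ was not tested.

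Another 103 genes of the same pathways were read beside the 36, in 6 lists. None was called at D60. At D80, 11 were higher and 19 lower, 29.1%, against 41.3% of all genes, with a median log2 fold change of −0.14. With no composition factor these counts became 26 higher and 1 lower, while 33.2% of all genes were called higher and 6.51% lower.

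In targeting and translocation, 1 of 18 genes was higher and 2 were lower at D80. Srprb, a subunit of the receptor of the signal recognition particle (SRP), was higher (0.38, adjusted p = 0.028), a call lost without D80WT 2, D80WT 3 or D80SV 2. The SRP subunit Srp19 (−0.51, 0.01) and the translocating chain-associated protein Tram1 (−0.48, 0.039) were lower, Tram1 with a call that held in 5 of 12 fits without 1 library. In N-glycosylation, 2 of 10 were higher and 1 was lower. Tusc3 stood at 51.2, 72.9 and 62.5 CPM in D80SV and 36.7, 30.6 and 25.4 in D80WT, with no overlap (log2 difference 1.01, SE 0.18, adjusted p = 0.001), and it was called in all 24 alternative fits. Rpn2 was higher (0.53, adjusted p = 0.013) and Magt1 lower (−0.63, 0.018). Tusc3 and Magt1 are the alternative oxidoreductase subunits of the same oligosaccharyltransferase, and they were called in opposite directions, Magt1 with no call under upper-quartile scaling or no composition factor. The call of Magt1 was lost without D80WT 2, D80SV 2 or D80SV 3, and that of Rpn2 without D80SV 2.

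In folding and disulfide formation, 5 of 22 genes were higher and 4 lower. Pdia2, a disulfide isomerase known from the pancreas, stood at 15.0, 3.50 and 3.38 CPM in D80SV and 0.61, 0.397 and 1.34 in D80WT (log2 difference 3.22, SE 0.66, adjusted p = 0.0028). It was highest in D80SV 1, where acinar markers summed to 4415 CPM, and the difference was 2.12 without that library (adjusted p = 0.0079). The Ero1 oxidase Ero1lb was higher (0.62, 0.0044), and the thioredoxin-domain isomerase Txndc5 (−0.64, 0.0074) and Sdf2 (−0.46, 0.0093) were lower.

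In degradation, 0 of 15 genes were higher and 3 lower, among them the mannosidase-like Edem3 (−0.54, 0.016) and the ubiquitin-conjugating enzyme Ube2g2 (−0.42, 0.021). In ER to Golgi transport, 0 of 19 were higher and 6 lower, among them the exit-site organiser Sec16b (−0.74, 0.006) and the coatomer subunit Cope (−0.41, 0.012), whose difference was 0.0036 with no composition factor. The call of Edem3 was lost without D80WT 2, D80SV 2 or D80SV 3, that of Ube2g2 without D60WT 1, D80WT 2, D80SV 1 or D80SV 2, and that of Cope without D80SV 3.

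Among 19 sensors, proteases and effectors, 3 were higher and 3 lower at D80. Creb3l2, a membrane-bound factor related to Creb3l1, stood at 36.9, 46.0 and 36.7 CPM in D80SV and 26.0, 18.7 and 20.2 in D80WT and was higher (log2 difference 0.88, SE 0.17, adjusted p = 0.0018). Sesn2, a stress-induced gene also known to depend on Atf4, was higher (0.68, 0.0029). Asns, which encodes asparagine synthetase and is a known target of Atf4, was lower (−0.69, 0.0046), at 96.2, 96.7 and 96.1 CPM against 179, 162 and 127. Ppp1r15b, which encodes the constitutive eIF2-alpha phosphatase subunit, was lower (−0.80, 0.0077). Of other genes known to depend on Atf4, Ddit4 was higher (0.71, 0.0036) and Atf3, a stress-induced transcription factor, was lower (−2.13, 0.0097), with no call by limma-voom (0.059) and with D80WT 1 below D80SV 1 and D80SV 2. Trib3 at 0.96 (0.06) and Chac1 at 1.08 (0.056) were not called, and Eif2ak3, which encodes Perk, was at −0.25 (0.31).

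**Figure D5:**
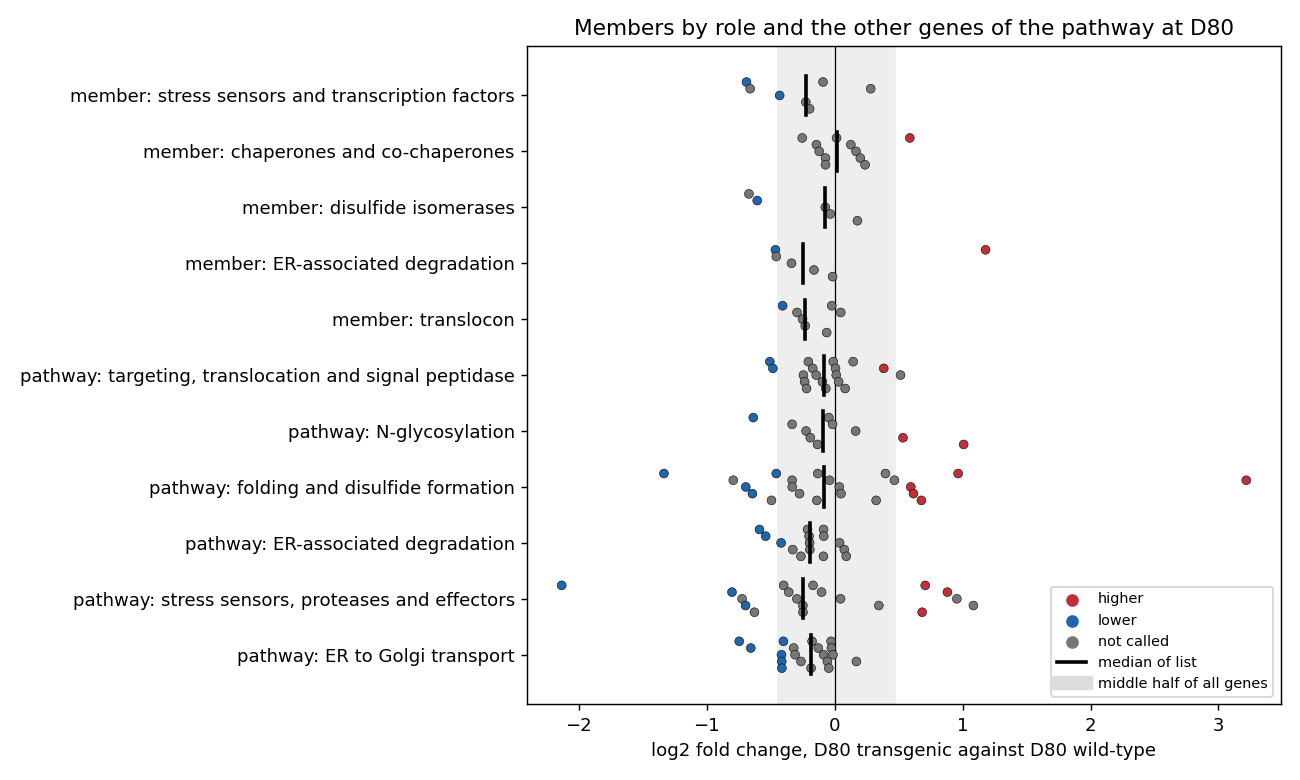
Each point is the log2 fold change of 1 gene between D80SV and D80WT (horizontal), in the 5 roles of the 36 genes and the 6 lists of other pathway genes (vertical), coloured by call, with a line at the median of each list and a band for the middle range of all genes. Medians run from −0.25 to 0.02 and Pdia2 is the gene farthest to the right at 3.22, while most points lie inside or near the band.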

How the data were processed

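Total RNA of bulk pylorus was sequenced as libraries made with a stranded mRNA kit, per the labels' protocols. The authors deposited raw counts per gene symbol, with no normalization. The submitters' processing notes list HTSeq 0.9.1, STAR 2.5.3a and edgeR 3.16.5, with the build mm10. Which annotation was counted, and with which strand setting, is not given in the sources used here. A normalized table that the authors also deposited was not used here.

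From these counts, filterByExpr kept the 15369 genes tested. Scaling by TMM and a quasi-likelihood fit over all 12 libraries followed in edgeR 4.0.16 (R 4.3.3), each of the 4 groups having its own coefficient, which leaves 8 residual degrees of freedom. Benjamini-Hochberg adjustment ran over all genes tested, the threshold was 0.05, and no minimum fold change was set. The 95% intervals of the log2 fold changes come from that fit. limma 3.58.1 and DESeq2 1.42.0 served as alternatives. The total counts per library, 20121600 to 27633715, set the counting error, which intervals of the fit include.

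The members and lists were chosen with earlier results of these data known. Values in every library are given for the 7 sensors and transcription factors, Hspa5 and the members called at D80, and up to 2 called genes with the smallest p per list and direction are named among the other pathway genes. Erp44 and other called pathway genes are counted only. The 24 alternatives were applied to the other pathway genes after the data were seen. Other genes in the text were named after their values were seen.

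On simulated data for D80, 60 of 100 genes changed by 2-fold and 97 of 100 changed by 4-fold were called, and 11 of the other genes, of 15179 in all. No libraries of a group agreed within sampling noise, with a chi-square per gene of 23.6 or more. Gene lengths, exon overlap and shared 50-base stretches came from GENCODE M21, and promoters from RefSeq on GRCm38.p6. Protein sequences were not used here.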

Additional observations from a re-analysis of the deposited data

Results flagged for a closer look

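Ddit4, a stress-induced inhibitor of mTORC1 signalling, was the only gene of the 36 and the other 103 that edgeR's interaction test called, that is, whose genotype difference passed the test for a change with age. It stood at 31.7, 41.5 and 36.9 CPM in D60WT and 28.8, 25.6 and 22.3 in D60SV, and at 23.3, 17.4 and 22.8 in D80WT and 33.8, 32.2 and 37.8 in D80SV. The transgenic libraries were below wild-type at D60 and above at D80. The genotype difference was −0.52 at D60 (adjusted p = 0.098) and 0.71 at D80 (0.0036), and the difference between these was 1.23 on the log2 scale by that test (adjusted p = 0.012). It held in all 12 fits that left out 1 library, and was lost with sex as a covariate (1.29, adjusted p = 0.14) and against a minimum fold change of 1.5 (adjusted p = 0.071). Within D60 genotype and sex cannot be told apart. Sex varied within D80SV alone, so the sex term of that fit rests on D80SV 1 against the other D80SV libraries.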

How the results depend on the processing

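At D60 and in the interaction, the counts of members called higher and lower were 0 in every alternative. At D80, 2 members were called higher and 5 lower. The counts became 3 lower with RLE factors, against 19.1% of all genes. With no composition factor they became 10 higher and 0 lower, against 33.2% and 6.51% of all genes. With upper-quartile factors 3 members were called, Ern1, Hyou1 and Derl3, and 0 were lower. Of all genes, 23.2% were then higher and 13.6% lower. DESeq2 called 9, with Ern1 and Agr2 added, and 43.7% of all genes. Without both D80WT 3 and D80SV 1, the libraries with the most duodenal and acinar transcripts, 0 were higher and 3 lower. That fit called 17.1% of all genes higher and 15.7% lower. D80SV 2 and D80SV 3 stayed in that fit, with 863.5 and 660.2 CPM of acinar markers other than Cela1. With sex as a covariate 1 was higher and 2 lower, against 18.2% and 18.3% of all genes. Sex varied within D80SV alone, so that term rests on D80SV 1 against the other D80SV libraries. The counts were 0 and 0 with a minimum fold change of 1.5, and 1 higher and 0 lower with only the 2 groups compared. Of all genes, 11.8% were higher and 5.19% lower with that minimum, and 18.6% and 13.4% with only those groups. Leaving out 1 library gave 1 to 2 higher and 0 to 6 lower: 1 higher without D80WT 1, D80WT 3, D80SV 1 or D80SV 2, and 0 lower without D80SV 2, 1 without D80SV 3, 2 without D80SV 1 or D80WT 2, and 3 without D60WT 1, D80WT 1, D60SV 2 or D60SV 3. From D60SV to D80SV, 3 were higher and 3 lower. The counts became 8 higher and 0 lower with no composition factor, against 33.5% and 7.14% of all genes. They became 5 lower with DESeq2 or with only the 2 groups compared, against 18.7% and 21.9% of all genes. They became 1 higher without both D80WT 3 and D80SV 1, and 0 and 0 with the minimum fold change. Upper-quartile factors gave 7 called members, with Atf6 added, and limma-voom gave 7, with P4hb added. These fits called 34.3% and 37.6% of all genes. Leaving out 1 library gave 1 to 3 higher (1 without D60SV 3 or D80SV 2). It gave 2 to 6 lower (6 without D80WT 1, 5 without D80WT 3). In wild-type, 0 became 2 lower with DESeq2, against 0.586% of all genes, and leaving out 1 library gave 0 to 1. With no composition factor, the sign turned from below to above 0 for 16 of the 36 members at D60, 19 at D80 and 17 from D60SV to D80SV. Of these, the ones called in either fit were Atf6 (0.33), Derl1 (0.41) and Sec61b (0.011) at D80 and Dnajb11 (0.33) from D60SV to D80SV. Among the other pathway genes named, Cope turned (0.0036). The cause was not tested. Libraries of the same number did not deviate together, with a mean correlation of −0.0041 over 18 pairs, from −0.344 to 0.393, so the replicate block was only an alternative: it gave 2 higher and 4 lower members at D80, 3 and 4 from D60SV to D80SV, and no calls at D60, in wild-type or in the interaction. Derl3 and Sec61g, with under 100 counts per library, had the least depth.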
